A study of Homo sapiens with 4 samples.

Results

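Matrix metalloproteases (MMPs), ADAMTS proteases and their tissue inhibitors (TIMPs) were followed in HuH7 cells, a human hepatocellular carcinoma line, after knockdown of MKL1 and MKL2. Members were all genes on the array annotated as MMP or ADAMTS plus a number, or as TIMP1 to TIMP4, with a probe that listed 1 gene. These were 43 of the 18417 genes tested, namely 22 MMP, 17 ADAMTS and 4 TIMP genes. The single probe for the MMP23A and MMP23B pair lists both genes and was left out, and ADAMTS7 and ADAMTS15 were not analysed here.

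The study profiled 2 cultures that stably expressed shRNA against MKL1 and MKL2 and 2 that stably expressed a control shRNA, with 1 array each. MKL1 and MKL2, now MRTFA and MRTFB, are coactivators of serum response factor (SRF) that are held by monomeric actin. Both groups were infected with pLKO.1 lentivirus made in HEK293T cells, were selected with puromycin for 7 days, and were grown in 10% serum below passage 10. By their titles the replicates are biological, but separate infections are not stated, nor whether the lines are pools or clones. The p-values therefore measure the spread between these arrays, which may be partly technical. Values are log2 expression values as deposited, differences are MKL1/2 shRNA minus control shRNA, and p-values are from limma, adjusted over all genes tested at a threshold of 0.05.

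MMPs and ADAMTS proteases are zinc-dependent endopeptidases. Most are made as latent precursors and act outside the cell or at its surface, where MMPs degrade collagens and other matrix proteins and many ADAMTS members cleave proteoglycans or process procollagens. TIMPs bind the active site of MMPs, and TIMP3 also blocks several ADAM and ADAMTS proteases. In liver, the balance of these proteases and inhibitors is best known from fibrosis, where stellate cells and macrophages make much of both.

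The probe that lists MRTFA read 6.81 and 6.91 in the MKL1/2 shRNA arrays, against 7.77 and 7.80 in the control arrays (difference -0.93, SE 0.096, limma adjusted p = 0.0404). That probe also lists a second gene. MRTFB read 6.84 and 7.11 in MKL1/2 shRNA arrays, against 7.20 and 7.22 in control arrays (limma adjusted p = 0.448). SRF read 9.37 and 9.52 in MKL1/2 shRNA arrays, against 9.80 and 9.97 in control arrays (limma adjusted p = 0.188). For the labelled cell type, 7 hepatocyte or hepatoma markers, among them ALB, AFP and TTR, read 9.95 to 12.43 in MKL1/2 shRNA arrays and 9.91 to 12.26 in control arrays. Among them AFP read lower in both MKL1/2 shRNA arrays, at 11.96 and 11.86, against 12.26 and 12.19 in control arrays (difference -0.31, limma adjusted p = 0.25), with an unadjusted limma p under 0.05. The 5 macrophage or leukocyte markers read at most 5.36 in MKL1/2 shRNA and 5.37 in control arrays, and PTPRC was higher at an unadjusted limma p under 0.05 (limma adjusted p = 0.327). The 3 measured neutrophil markers read 4.75 to 7.53 in MKL1/2 shRNA arrays and 4.46 to 7.26 in control arrays. All 3 lay higher on average in MKL1/2 shRNA arrays, with a median difference of 0.23 and no unadjusted limma p under 0.05. The part of these markers in the values of the members was not tested. Of the 5 stromal markers, LUM stood out at 7.13 and 8.60 in MKL1/2 shRNA arrays, against 8.05 and 8.01 in control arrays. Over all genes, the SD of the difference between replicates was 0.265 for the MKL1/2 shRNA arrays and 0.154 for the control arrays. In such bulk RNA, fewer cells of a kind and less RNA per cell cannot be told apart.

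None of the 43 members passed the test, where 32 of all genes did (0.174%), with 0.0923% of all genes lower and 0.0814% higher. At an unadjusted limma p under 0.05, 5 members were lower and 3 higher in MKL1/2 shRNA cells. Without moderation these counts were 1 and 0, and leaving out 1 array moved them up or down, depending on the array. With all arrays and moderation, the counts are 11.6% and 6.98% of the members, against 8.04% and 6.25% of all genes, and together 18.6% against 14.3%. The lower ones were ADAMTS1, TIMP3, ADAMTS3, MMP24 and ADAMTS19, and the higher ones MMP15, MMP11 and MMP7. The median difference was 0.0071 over the members and 0.0082 over all genes, and 20 members lay below 0 (46.5%, against 48% of all genes). Both MKL1/2 shRNA arrays read below both control arrays for 9 members (20.9%, against 23% of all genes) and above them for 6 (14%, against 22.5%), so that groups did not overlap for 34.9% of members and 45.5% of all genes. A difference of at least 0.3 in size was found for 9 members (20.9%, against 13.7% of all genes). Of the 12 members with a mean above the median gene, 5 had an unadjusted limma p under 0.05 (41.7%, against 19.2% of such genes) and 6 had groups that did not overlap (50%, against 53.4%). Of the 31 dimmer members, 3 had such a p (9.68%, against 9.39% of dimmer genes).

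**Figure D1:**
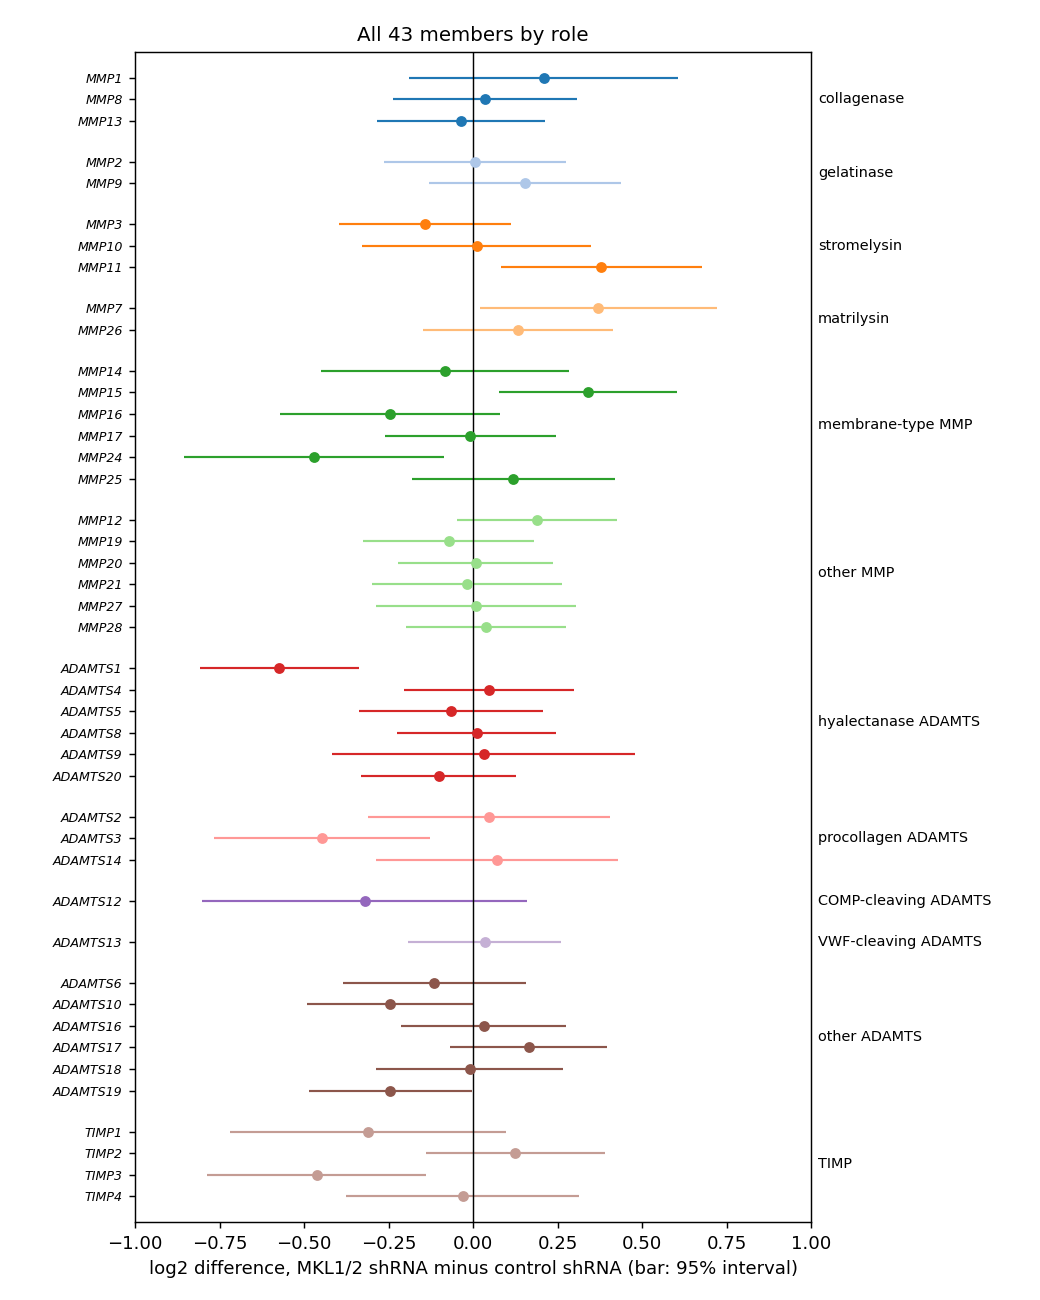
Log2 difference, MKL1/2 shRNA minus control shRNA, for all 43 members (x axis), grouped by role (y axis); points are the difference of 2 against 2 arrays and bars limma's 95% interval. Differences run from -0.57 for ADAMTS1 to 0.38 for MMP11, and most intervals include 0.

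Among the inhibitors, TIMP3 read lower in both MKL1/2 shRNA arrays, whereas TIMP1, TIMP2 and TIMP4 had overlapping groups. TIMP3, the matrix-bound inhibitor, read 9.68 and 9.35 in MKL1/2 shRNA arrays, against 9.94 and 10.01 in control arrays. The difference of -0.46 (SE 0.133, limma adjusted p = 0.218) corresponds to 72.5% of the control value, with a 95% interval of 58% to 90.7%. A second probe that lists TIMP3 read 7.73 and 7.31 in MKL1/2 shRNA arrays, against 8.04 and 8.06 in control arrays, a difference of -0.53 (SE 0.152). On both probes each MKL1/2 shRNA array lay below each control array, and replicate 2 was the lower of the knockdown arrays. TIMP1, a broad inhibitor of secreted MMPs, read 8.36 and 8.82 in MKL1/2 shRNA arrays, against 8.81 and 8.99 in control arrays. Only replicate 1 of the knockdown lay apart from the controls for TIMP1, and the difference of -0.31 had a 95% interval of -0.72 to 0.097 (limma adjusted p = 0.461). TIMP2, which with MMP14 takes part in activating MMP2, read 6.86 and 6.95 in MKL1/2 shRNA arrays, against 6.87 and 6.69 in control arrays. TIMP4 read 6.75 and 6.37 in MKL1/2 shRNA arrays, against 6.61 and 6.58 in control arrays, so that one knockdown array lay above and the other below both controls. The intervals of these differences were -0.14 to 0.39 for TIMP2 and -0.38 to 0.31 for TIMP4.

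**Figure D2:**
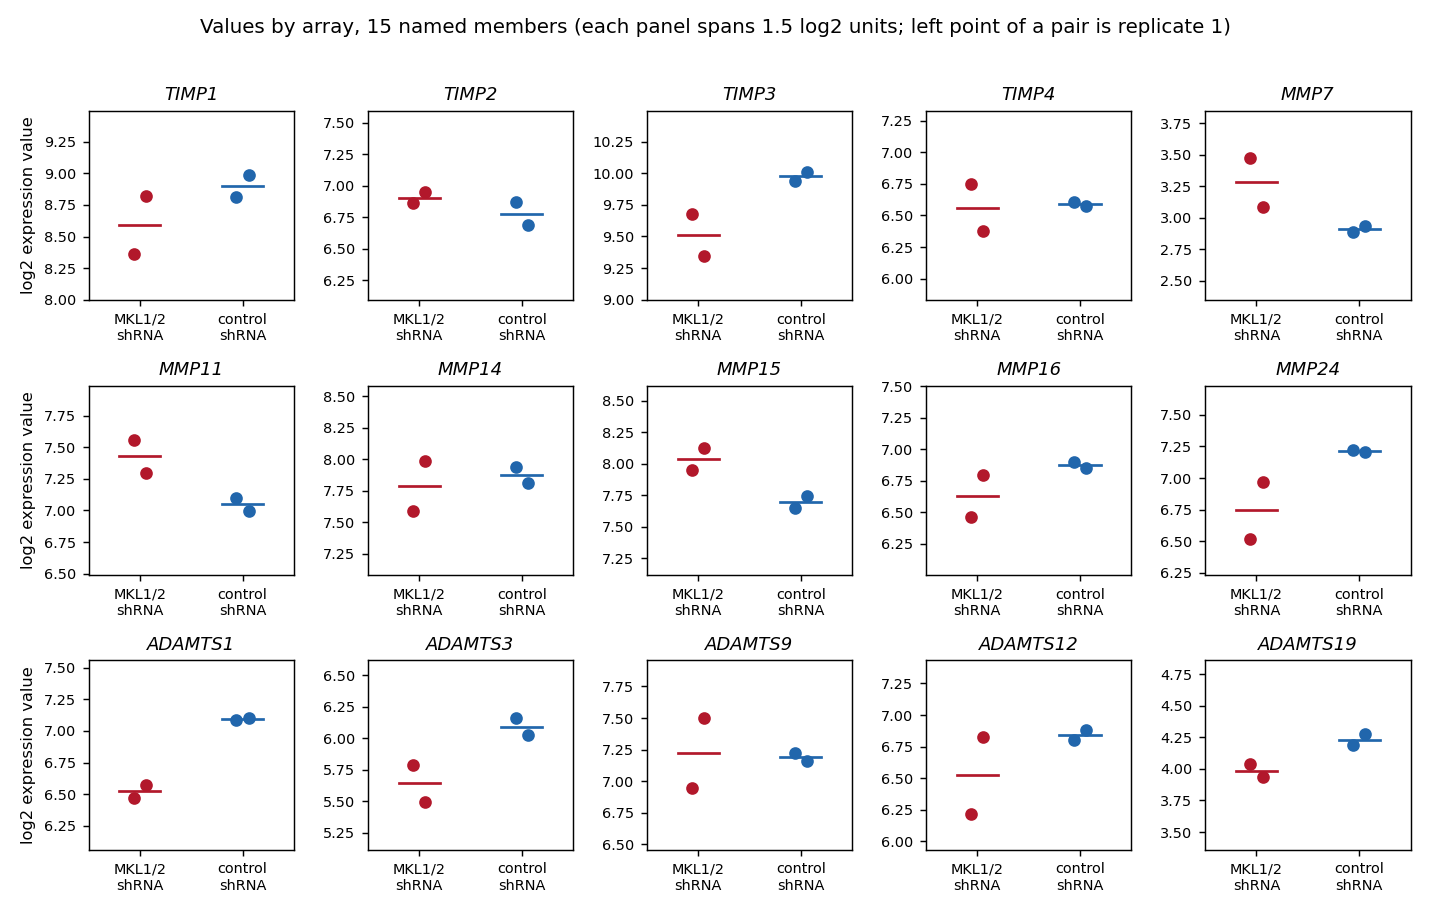
Log2 expression values (y axis) of 15 members in the MKL1/2 shRNA and control shRNA arrays (x axis); points are arrays, lines group means, and panels span equal ranges. ADAMTS1 shows the widest gap between groups. The MKL1/2 shRNA arrays lie further apart than the control arrays for every gene shown but TIMP2, and furthest for ADAMTS12, ADAMTS9 and TIMP1.

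The membrane-type MMPs, which cleave matrix and activate other MMPs at the cell surface, had differences on both sides of 0, and none passed the test. MMP15 read 7.95 and 8.13 in MKL1/2 shRNA arrays, against 7.65 and 7.74 in control arrays, a difference of 0.34 (SE 0.108, limma adjusted p = 0.253). MMP24 read 6.52 and 6.97 in MKL1/2 shRNA arrays, against 7.22 and 7.21 in control arrays, a difference of -0.47 (SE 0.158, limma adjusted p = 0.272). The groups did not overlap for either gene, and MMP24 was lowest in knockdown replicate 1. MMP14, the main activator of MMP2 on the cell surface, read 7.59 and 7.99 in MKL1/2 shRNA arrays, against 7.94 and 7.81 in control arrays. Its interval ran from -0.45 to 0.28, and the knockdown arrays lay on either side of the controls. MMP16 read 6.46 and 6.80 in MKL1/2 shRNA arrays, against 6.90 and 6.85 in control arrays. Its second probe read 6.06 and 6.67 in MKL1/2 shRNA arrays, against 6.63 and 6.86 in control arrays. The first MMP16 probe did not overlap between groups, by a gap of 0.053 at its narrowest, and the second did. MMP17 and MMP25, which are anchored in the membrane by a lipid, differed by -0.0080 and 0.12, with overlapping groups.

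The secreted MMPs were mostly dim. No detection calls stand behind the values, and signals of different probes do not compare transcript levels, but of 16 secreted MMPs only MMP11 had a mean above the median of all gene means, which was 6.31. MMP11, or stromelysin 3, which is activated inside the cell by furin, read 7.56 and 7.30 in MKL1/2 shRNA arrays, against 7.10 and 7.00 in control arrays. The groups did not overlap and the difference was 0.38 (SE 0.122, limma adjusted p = 0.255), or 130% of control with an interval of 106% to 160%. The gelatinases MMP2 and MMP9, which digest denatured collagen and basement membrane collagen, read 5.12 to 5.35 in MKL1/2 shRNA arrays and 5.03 to 5.29 in control arrays. Their differences were 0.0049 (95% interval -0.26 to 0.27) for MMP2 and 0.15 (-0.13 to 0.44) for MMP9. The collagenases MMP1, MMP8 and MMP13, which cut fibrillar collagen, read 2.51 to 4.03 in MKL1/2 shRNA and 2.43 to 3.62 in control arrays, and the groups overlapped for each. The highest of these values, 4.03, was MMP1 in knockdown replicate 1, against 3.56 in replicate 2 and 3.62 and 3.55 in the control arrays. MMP12, MMP19, MMP20, MMP21, MMP27 and MMP28 differed by -0.073 to 0.19, with MMP12, the macrophage elastase, at the upper end. MMP12 read 2.67 and 2.56 in MKL1/2 shRNA arrays, against 2.43 in both control arrays, and is singled out here after its values were seen.

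MMP7, MMP20, MMP27, MMP8, MMP10, MMP1, MMP3, MMP12 and MMP13 are neighbours in the human genome and form the MMP gene cluster. All 9 read at or below 4.17 in every array, with a median difference of 0.0098. MMP7, or matrilysin, read 3.47 and 3.09 in MKL1/2 shRNA arrays, against 2.89 and 2.93 in control arrays. Both knockdown arrays lay above the controls, by 0.37 on average (SE 0.144, limma adjusted p = 0.325), at signals below 4.92, the first quartile of gene means. MMP10, or stromelysin 2, read 4.00 and 3.93 in MKL1/2 shRNA arrays, against 3.77 and 4.14 in control arrays, so that the controls enclosed both knockdown arrays. Its relative MMP3 read 3.91 and 4.00 in MKL1/2 shRNA arrays, against 4.02 and 4.17 in control arrays.

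Promoters of 25 of the 43 members were found in a RefSeq table of 27305 windows (GRCh38.p14), each from 250 bases before to 50 after the gene start. ADAMTS1, TIMP2, MMP1, MMP2, MMP3 and MMP9 were among the members without a window, so that the motif counts do not cover them. The windows were searched on both strands for the AP-1 site TGANTCA, the ETS-family site AGGAAG known as PEA3 from MMP promoters, the TEAD site GGAATG, and the CArG box that SRF binds. AP-1 sites stood in 4 of the 25 (MMP7, MMP10, MMP20 and ADAMTS12), against 7.76% of all windows, PEA3 sites in 6 (33.7% of all), and TEAD sites in 4 (14% of all). The CArG box matched 0 of the 25 windows and 1.29% of all, which says only that these letters are not in the windows. The 250 bases before the gene start are shown for MMP7 and MMP10, cluster genes whose AP-1 letters both lie at positions -67 to -61, and for TIMP3, the inhibitor with the lowest p. ADAMTS12 and TIMP1 are shown because their knockdown arrays disagreed, and they and MMP10 were picked after their values were seen. Capitals mark matches: TGAGTCA or TGAATCA is the AP-1 site, AGGAAG or its reverse complement CTTCCT the PEA3 site, and CATTCC the reverse complement of the TEAD site.
MMP7, chr11:102530748-102530997, minus strand: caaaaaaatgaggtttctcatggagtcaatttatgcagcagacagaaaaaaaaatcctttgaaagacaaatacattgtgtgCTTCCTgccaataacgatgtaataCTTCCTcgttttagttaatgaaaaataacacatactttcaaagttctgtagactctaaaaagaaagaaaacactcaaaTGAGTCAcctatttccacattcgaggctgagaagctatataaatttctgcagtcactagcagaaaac
MMP10, chr11:102780629-102780878, minus strand: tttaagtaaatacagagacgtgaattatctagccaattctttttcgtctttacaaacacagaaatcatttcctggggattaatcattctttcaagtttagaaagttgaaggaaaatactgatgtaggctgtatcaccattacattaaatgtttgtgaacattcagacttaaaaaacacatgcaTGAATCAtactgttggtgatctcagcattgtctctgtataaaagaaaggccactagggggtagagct
TIMP3, chr22:32801455-32801704, plus strand: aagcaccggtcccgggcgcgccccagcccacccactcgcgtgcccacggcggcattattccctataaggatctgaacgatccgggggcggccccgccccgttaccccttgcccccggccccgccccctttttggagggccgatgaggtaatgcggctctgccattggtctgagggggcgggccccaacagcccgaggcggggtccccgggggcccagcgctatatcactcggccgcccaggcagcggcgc
ADAMTS12, chr5:33891991-33892240, minus strand: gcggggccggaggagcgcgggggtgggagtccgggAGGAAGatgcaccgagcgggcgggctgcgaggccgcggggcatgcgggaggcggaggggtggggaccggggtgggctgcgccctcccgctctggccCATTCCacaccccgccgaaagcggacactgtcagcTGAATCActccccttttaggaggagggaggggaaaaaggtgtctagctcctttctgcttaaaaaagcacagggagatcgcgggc
TIMP1, chrX:47582186-47582435, plus strand: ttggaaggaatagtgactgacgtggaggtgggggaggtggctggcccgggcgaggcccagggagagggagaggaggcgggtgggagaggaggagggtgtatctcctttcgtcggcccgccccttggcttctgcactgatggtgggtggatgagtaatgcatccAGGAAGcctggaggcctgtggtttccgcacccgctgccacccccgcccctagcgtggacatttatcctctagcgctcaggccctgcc
No matches overlapped in these sequences, and TIMP3 had none. MMP7 and MMP10 share the position of the AP-1 letters but not their values, with a difference of 0.37 for MMP7 and 0.0098 for MMP10. In ADAMTS12 the AP-1 letters lie at -84 to -78. The windows of MMP11, MMP14, MMP15, MMP24, ADAMTS3, ADAMTS19 and TIMP3 held none of the 4 motifs.

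ADAMTS1 had the largest difference and the smallest p of all members, but did not pass the test, and neither did the other proteoglycan-cleaving ADAMTS genes. ADAMTS1, which cleaves versican and aggrecan, read 6.47 and 6.57 in MKL1/2 shRNA arrays, against 7.09 and 7.11 in control arrays. Its knockdown arrays lay close together and 0.51 or more below the controls, at 67.2% of control (95% interval 57.1% to 79.1%, limma adjusted p = 0.107). ADAMTS9, another versicanase, read 6.94 and 7.50 in MKL1/2 shRNA arrays, against 7.22 and 7.16 in control arrays. The knockdown arrays of ADAMTS9 lay on either side of the controls, and the interval of its difference ran from -0.42 to 0.48. ADAMTS4, ADAMTS5, ADAMTS8 and ADAMTS20 differed by -0.10 for ADAMTS20 to 0.047 for ADAMTS4.

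Among the ADAMTS genes that act on procollagens, none passed the test, and the groups overlapped for ADAMTS2 and ADAMTS14 but not for ADAMTS3. ADAMTS3, which also takes part in processing VEGF-C, read 5.79 and 5.49 in MKL1/2 shRNA arrays, against 6.16 and 6.02 in control arrays. Both knockdown arrays lay below the controls, by 0.45 on average (SE 0.131, limma adjusted p = 0.224). ADAMTS2 read 6.24 and 5.84 in MKL1/2 shRNA arrays, against 5.97 and 6.02 in control arrays, and ADAMTS14 read 5.63 and 5.25 in MKL1/2 shRNA arrays, against 5.30 and 5.44 in control arrays. For these, knockdown replicate 1 lay above and replicate 2 below both controls. The interval was -0.31 to 0.41 for ADAMTS2 and -0.29 to 0.43 for ADAMTS14.

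ADAMTS12, which cleaves the cartilage protein COMP, read 6.22 and 6.82 in MKL1/2 shRNA arrays, against 6.80 and 6.88 in control arrays, so that replicate 2 lay within the control range. ADAMTS13, which cleaves von Willebrand factor, read 5.98 and 5.93 in MKL1/2 shRNA arrays, against 5.93 and 5.92 in control arrays (difference 0.034, 95% interval -0.19 to 0.26). ADAMTS19, whose substrates are little known, read 4.04 and 3.94 in MKL1/2 shRNA arrays, against 4.19 and 4.27 in control arrays. The groups of ADAMTS19 did not overlap, with a difference of -0.25 (SE 0.099, limma adjusted p = 0.341). ADAMTS10, which binds fibrillin microfibrils, read 5.59 and 5.44 in MKL1/2 shRNA arrays, against 5.76 in both control arrays, and is singled out after its values were seen (difference -0.25, limma unadjusted p = 0.0509). ADAMTS6, ADAMTS16, ADAMTS17 and ADAMTS18 differed by -0.11 for ADAMTS6 to 0.16 for ADAMTS17.

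The MKL1/2 shRNA arrays were further apart than the control arrays for 32 of the 43 members (74.4%, against 63.6% of all genes). Replicate 1 read above replicate 2 of the knockdown for 29 members (67.4%, against 52.2% of all genes). TIMP1, MMP14, MMP16, MMP24, ADAMTS9 and ADAMTS12 were among those that went the other way, as did the stromal marker LUM. The share of 52.2% is not matched for brightness. Over all probes, knockdown replicate 1 had the higher lower quartile (4.02 against 3.99) but the lower upper quartile (7.44 against 7.48). Of members with a mean above the median gene, all but TIMP3, MMP11 and TIMP4 read lower in replicate 1. Most dimmer members read higher there. The part of signal level in the count of 29 was not tested. The summed linear signal of the 5 stromal markers was 266.2 and 540.1 in MKL1/2 shRNA arrays, against 394 and 398 in control arrays. LUM made up the larger part of each sum. PDGFRA, at 4.95 and 5.82 in MKL1/2 shRNA arrays, against 5.21 and 5.27 in control arrays, and PDGFRB ordered the knockdown arrays as LUM did, whereas COL3A1 and DCN were higher in replicate 1. None of the 5 had an unadjusted limma p under 0.05, 4 had overlapping groups, and DCN was the dimmest at 2.96 and 2.78 in MKL1/2 shRNA arrays and 2.74 and 2.66 in control arrays. The summed linear signal of the 5 endothelial markers ordered the knockdown arrays the other way. It was 234.5 and 174.8 in MKL1/2 shRNA arrays, against 197.2 and 183.5 in control arrays, with 0 unadjusted limma p under 0.05. The part of the stromal and endothelial markers in the spread of the members was not tested. Without knockdown replicate 2, ADAMTS1, MMP24 and ADAMTS12 passed as lower (limma adjusted p = 0.0359, 0.0301 and 0.0392 in that order) and MMP7 as higher (limma adjusted p = 0.044). These are 4 of 43 members (9.3%), where 781 of all genes passed (4.24%). They were lower for 6.98% of members and 2.4% of all genes, and higher for 2.33% of members and 1.84% of all genes. Without knockdown replicate 1 no member passed, against 1.62% of all genes (0.733% lower and 0.89% higher), and without either control array neither a member nor any other gene did.

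**Figure D3:**
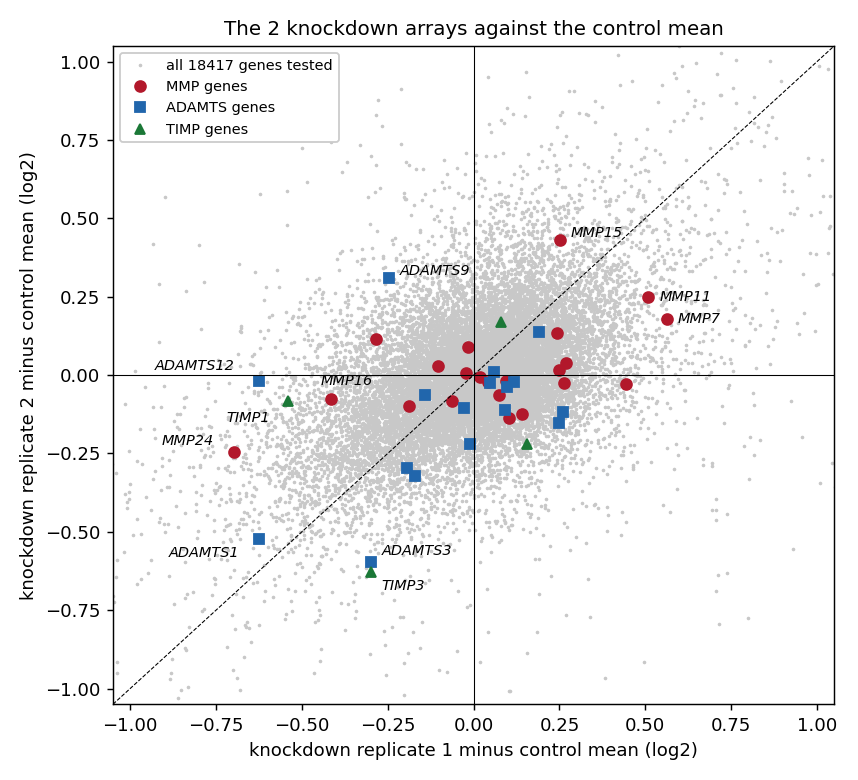
Difference from the control mean on the log2 scale in knockdown replicate 1 (x axis) and replicate 2 (y axis); coloured points are MMP, ADAMTS and TIMP genes and grey points all 18417 genes tested, those beyond the axes not shown. ADAMTS1, ADAMTS3, TIMP3, MMP15, MMP11 and MMP7 lie on the same side of 0 in both arrays, whereas TIMP1 and ADAMTS12 lie near 0 in replicate 2.

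Around these families, 6 lists of genes, covering related proteases, their activators and inhibitors, matrix substrates and transcription factors, were read in the same fit. The lists were chosen with earlier results of these data known, so that their counts beside the shares of all genes are description and not independent support. None of their 77 measured genes passed. In the plasminogen system, a protease cascade that can activate several MMPs, 3 of 9 measured genes were higher at an unadjusted limma p under 0.05 and none lower, against 6.25% and 8.04% of all genes. PLAU, the urokinase gene, read 7.88 and 8.06 in MKL1/2 shRNA arrays, against 7.19 and 7.13 in control arrays (limma adjusted p = 0.0688). PLG, which encodes plasminogen, read 8.44 and 7.31 in MKL1/2 shRNA arrays, against 6.89 and 7.07 in control arrays, so that most of its difference of 0.90 came from replicate 1. SERPINF2, the gene of the plasmin inhibitor antiplasmin, differed by 0.35 and PLGRKT, a plasminogen receptor gene, by 0.19. The median of the list was 0.19.

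Of 15 convertases, inducers and further inhibitors, 2 were lower and 2 higher at that unadjusted p, against 8.04% and 6.25% of all genes. TFPI2, a secreted inhibitor of serine proteases such as plasmin, read 6.61 and 5.80 in MKL1/2 shRNA arrays, against 7.53 and 7.50 in control arrays (limma adjusted p = 0.128). RECK, a membrane-anchored MMP inhibitor, read 6.98 and 7.02 in MKL1/2 shRNA arrays, against 6.57 and 6.61 in control arrays (limma adjusted p = 0.159). RECK thus read higher, and TIMP3 and TFPI2 lower, in both knockdown arrays. FURIN, a convertase that activates membrane-type MMPs and many ADAMTS precursors, differed by -0.41 and the proteoglycan gene SPOCK2 by 0.29. The list's median was 0.043.

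Of 12 ADAM genes, 1 was lower and 2 higher at that unadjusted p, against 8.04% and 6.25% of all genes, with a median of 0.052. ADAM19 read 6.24 and 6.42 in MKL1/2 shRNA arrays, against 6.84 and 6.89 in control arrays. ADAM10, a shedding protease, and ADAM28 differed by 0.34 and 0.30, and ADAM8 by 0.17. Of 5 measured ADAMTS-like genes, which lack a protease domain, none had an unadjusted limma p under 0.05. ADAMTSL4, ADAMTSL2 and ADAMTSL1 differed by 0.37, 0.31 and 0.13, and ADAMTSL5 by -0.10.

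Of 22 measured matrix substrates, 6 were lower and none higher at an unadjusted limma p under 0.05, against 8.04% and 6.25% of all genes, and their median was -0.055. VCAN, which encodes the ADAMTS1 substrate versican, read 8.03 and 8.55 in MKL1/2 shRNA arrays, against 9.19 and 9.11 in control arrays. Its difference of -0.86 (SE 0.175, limma adjusted p = 0.136) went the same way as that of ADAMTS1. COL1A2, a chain of fibrillar collagen I, differed by -1.06, the laminin gene LAMB1 by -0.48 and the tenascin gene TNC by -0.39. BGN and THBS1, the other lower genes, which encode biglycan and thrombospondin 1, differed by -0.60 and -0.62. FN1, the fibronectin gene, had an unadjusted limma p above 0.05, with 12.24 and 12.08 in MKL1/2 shRNA arrays, against 12.29 and 12.18 in control arrays. Of 14 measured AP-1 and ETS factors, which bind many MMP promoters, 3 were lower and 1 higher at that unadjusted p, against 8.04% and 6.25% of all genes, and the median was -0.029. FOSL1 read 7.16 in both MKL1/2 shRNA arrays, against 7.67 and 7.65 in control arrays, and JUNB read 8.55 and 8.48 in MKL1/2 shRNA arrays, against 8.18 and 8.15 in control arrays. ETS1 and ETV4 differed by -0.46 and -0.28.

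**Figure D4:**
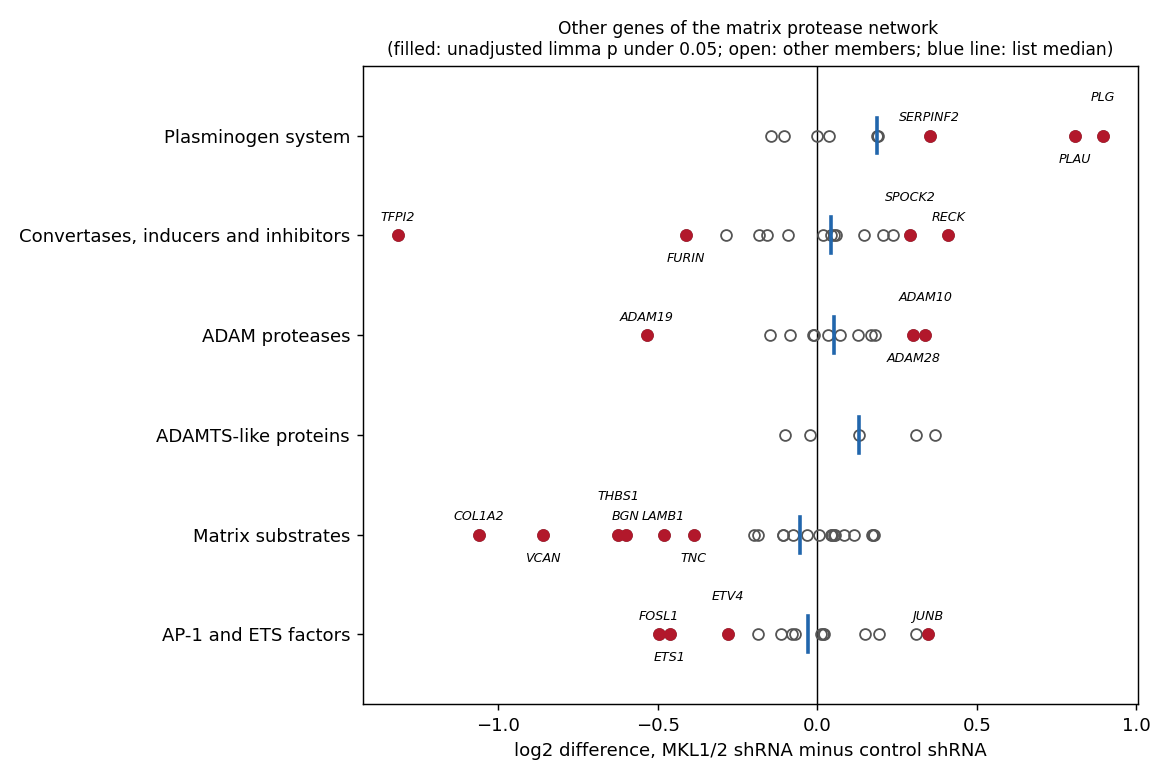
Log2 difference, MKL1/2 shRNA minus control shRNA (x axis), for 6 lists of genes around the MMP, ADAMTS and TIMP families (y axis); points are genes, filled where the unadjusted limma p was under 0.05, and blue lines are list medians. Differences run from -1.31 for TFPI2 to 0.90 for PLG.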

How the data were processed

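Biotin-labelled RNA of 4 HuH7 cultures was hybridised to 1-colour whole-transcript arrays. The authors deposited log2 values of 33297 probes, a scale read from the values themselves. The submitters' processing notes name Partek, and how background and normalization were handled is not given in the sources used here. Groups follow the sample titles.

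Probes listed 1 gene symbol (19460), several (1754) or none here (12083). Entrez identifiers linked 19429 of the first to RefSeq (GRCh38.p14), and a gene took its probe with the highest mean. The 18417 genes were fitted with limma 3.58.1 (R 4.3.3, lmFit then eBayes) on group alone, two-sided, with p-values adjusted by Benjamini-Hochberg. The 95% intervals use 2 residual plus 4.12 prior degrees of freedom. The fit was tested on simulated data. The number of arrays limits the precision.

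Members, lists and motifs were chosen with earlier results of these data known. Named members are the TIMPs, and MMP or ADAMTS genes with unadjusted limma p under 0.05 or with a mean above the median gene. MMP or ADAMTS genes whose groups did not overlap and whose difference was at least 0.3 in size are named too. The rest are mainly summarised, with values for some added after they were seen. Each list names its 4 smallest p, plus BGN, THBS1, FN1, LUM and DCN, added after their values were seen. Alternatives were a dim-gene filter, normalization, averaged probes, the prior, a replicate block and leaving out each array.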

Additional observations from a re-analysis of the deposited data

How the results depend on the processing

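With all 4 arrays no member passed under any alternative run: without the dimmest 40% of genes, with quantile normalization, median centring, averaged probes, a trended or robust prior, no moderation, or a replicate block. Over all genes, 32 passed, against 51 with a robust prior, 0 without moderation and 93 with the replicate block. Leaving out 1 array gave 0 to 781 genes. At an unadjusted limma p under 0.05, 5 members were lower and 3 higher, against 1 and 0 without moderation, and 5 and 3 with the replicate block. Leaving out 1 array gave 1 to 8 lower and 0 to 7 higher members, of which 0 to 3 and 0 to 1 passed the adjusted threshold. The passing members appeared without knockdown replicate 2. Replicate numbers were treated as names only: the labels tie them to no shared day or batch, and deviations of same-numbered arrays correlated at -0.067 over genes. With 1 array left out, the lone array of a group is assumed to vary like the other group. Over all genes, however, the SD of the difference between replicates was 0.265 for the knockdown arrays and 0.154 for the control arrays. For fits without 1 array, differences are therefore given, and p-values and the sizes of counts are not.

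Of the named differences, ADAMTS9 changed sign with median centring, to -0.00065. On leaving out 1 array it ranged from -0.25 to 0.31, MMP14 from -0.28 to 0.11 and TIMP4 from -0.22 to 0.16. Others kept their sign but moved in size: ADAMTS12 ranged from -0.62 to -0.019, TIMP1 from -0.54 to -0.081, MMP16 from -0.41 to -0.077, MMP24 from -0.70 to -0.25, TIMP3 from -0.63 to -0.30, ADAMTS3 from -0.60 to -0.30, MMP7 from 0.18 to 0.56, MMP11 from 0.25 to 0.51 and TIMP2 from 0.035 to 0.21. ADAMTS1 ranged from -0.62 to -0.52, MMP15 from 0.25 to 0.43 and ADAMTS19 from -0.30 to -0.19. MMP7 and ADAMTS19 were removed by the filter on dim genes. With no detection calls, low signals, as for the MMP gene cluster, have no known floor. The causes of these changes were not tested.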
